A study of Mus musculus with 12 samples.

Results

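Fibronectin and 8 further secreted matrix glycoproteins were followed in RNA from peritoneal lavage cells of mice carrying ovarian tumour cells. The genes were Fn1, Vtn, Thbs1, Thbs2, Sparc, Postn, Tnc, Nid1 and Nid2, picked by symbol, and they are 9 of the 55401 genes in the deposited table. Fn1 and Thbs1 were the most abundant in uninjected mice and were lower with either tumour, and Nid1 was lower by a factor above 10. Sparc was nearly absent without tumour and rose by a factor above 200 with it. Nid2 was higher in ID8-FSHR lavage than in ID8 lavage. It was the only one of the 8 tested genes called between the tumour groups, where 11.6% of all tested genes were called. This call was lost without ID8 library 3, and Nid2 shares exon bases with the gene Rtraf on the opposite strand.

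Fibronectin is a dimeric glycoprotein that cells assemble into fibrils through integrins, and it is a known product of the large resident macrophages of the mouse peritoneal cavity. Matricellular proteins such as thrombospondins, SPARC, periostin and tenascin-C are secreted into the matrix but serve mainly to alter adhesion and signalling. Nidogens link the laminin and collagen IV networks of basement membranes. In the peritoneal cavity, fibronectin and vitronectin on the mesothelial lining are known attachment points for ovarian cancer cells.

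The 3 groups held 4 libraries each. ID8-FSHR mice received the line labelled ID8 (defb29/Vegf-a) FSHR, ID8 mice received ID8 (defb29/Vegf-a), and the uninjected mice received no injection. All were C57BL/6J, and cells were washed from the cavity with 8 mL of saline. In both tumour groups this was on day 7 after injection, and no day is listed for the uninjected mice. ID8 is a mouse ovarian surface epithelial line, and both tumour lines carry the additions Defb29 and Vegfa. The sources used here do not give the promoters of these additions, the mice's age or whether each line is 1 clone. No mice were injected without tumour cells, so the injection and the tumour cannot be told apart. The study's design text calls the samples of a group biological replicates.

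A lavage is a mixture, and fewer cells of a type and less RNA per cell cannot be told apart in its RNA. Levels are in CPM, which are counts scaled to a common library size, so a lower level may also be a smaller share of a larger total. Total counts ran from 47419608 to 64333677, so that 3 counts, the limit that a count of 0 allows, is 0.0444 to 0.0653 CPM (counting error only). Fshr had 7 and 2 counts in ID8-FSHR libraries 4 and 3, 2 counts in ID8 library 3 and 0 in the others, so it does not check the FSHR label, and ID8-FSHR means the libraries so labelled. Defb29 stood at 8.41 to 23.8 CPM in ID8-FSHR and 20.8 to 29.1 CPM in ID8, against 0 counts in uninjected mice. Vegfa stood at 37.6 to 75.9 CPM in ID8-FSHR and 46.8 to 58.3 CPM in ID8, against 1.54 to 2.51 CPM in uninjected mice. On the first principal component ID8-FSHR library 2 was at -24.8, apart from its group, with the remaining tumour libraries at -68.7 to -60.7 and the uninjected ones at 116 to 121. Values without it are also given for Nid2 and for the Thbs1, Nid1 and Sparc differences between the tumour groups. Results of the receptor, basement membrane, other matricellular and assembly genes are given only with it. The labels call the cell type of the tumour samples a cell line, yet the macrophage gene Adgre1 and the B cell gene Cd79b were counted in every library, so the samples hold host cells too.

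Promoter sequence is shown for Postn and Tnc, which were higher with tumour, and for Nid1, which was lower. The runs are the RefSeq bases upstream of a start site (GRCm38.p6) that lie outside the gene's annotated exons, written 5′ to 3′ on the gene's strand with motif matches in capitals. Postn is chr3:54360857-54361106 on the plus strand, Tnc is chr4:64047016-64047265 on the minus strand and Nid1 is chr13:13437352-13437550 on the plus strand.
Postn: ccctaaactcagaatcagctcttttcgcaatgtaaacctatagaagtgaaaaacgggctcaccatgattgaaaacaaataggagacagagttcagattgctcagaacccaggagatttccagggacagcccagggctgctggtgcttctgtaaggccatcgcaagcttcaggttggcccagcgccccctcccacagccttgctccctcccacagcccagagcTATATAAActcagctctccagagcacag
Tnc: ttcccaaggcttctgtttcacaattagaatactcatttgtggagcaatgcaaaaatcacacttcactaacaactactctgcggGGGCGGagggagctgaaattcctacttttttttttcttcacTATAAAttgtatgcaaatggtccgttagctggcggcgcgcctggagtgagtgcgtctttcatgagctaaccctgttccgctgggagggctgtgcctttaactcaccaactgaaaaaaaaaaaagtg
Nid1: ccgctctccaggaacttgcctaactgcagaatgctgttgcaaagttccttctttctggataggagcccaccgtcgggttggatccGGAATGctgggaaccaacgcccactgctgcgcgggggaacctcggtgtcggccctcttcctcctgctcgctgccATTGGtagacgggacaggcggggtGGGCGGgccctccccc
The capitals mark the TATA box letters TATAAA and TATATA, the GC box GGGCGG, the CCAAT box and the TEAD element GGAATG, each on either strand. The AP-1 letters TGANTCA were also sought and had no match in these windows.

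In the Postn run TATATA begins 28 bases before the start and overlaps TATAAA at 26 bases before it. In the Tnc run TATAAA lies 126 and the GC box 167 bases before the start. Tnc has a further start, whose window is not printed. TATAAA lies 205, the GC box 246 and TATATA 29 bases before that start. A further Postn window, also not printed, holds none of the letters sought. The Nid1 run holds a GC box 67, a CCAAT box 91 and a TEAD element 165 bases before the start. Of all 32807 mouse windows of 250 bases, 12.4% hold TATAAA, 5.25% TATATA, 32.7% GGGCGG, 33.8% CCAAT and 12.6% GGAATG. The Nid1 window is 64.4% G and C with 16 CpG, against 52.0% and 4 CpG for Postn, 44.8% and 8 CpG for Tnc, and medians of 52.4% and 6 CpG over all windows. A match is a description of letters, not a binding site. The table held windows for 6 of the 9 genes (8 windows), and Fn1, Thbs1 and Nid2 were not matched.

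Fn1 (ENSMUSG00000026193.15, chr1:71585520-71653200 of GRCm38, minus strand, 45 merged exons) carried most of the reads of the whole set. It stood at 20819, 20842, 18316 and 10059.5 CPM in ID8-FSHR libraries 1 to 4, at 16225, 20681, 20878 and 20967 CPM in ID8, and at 52577, 45238, 46433 and 43850.2 CPM in uninjected mice. All 8 tumour libraries lay below all 4 uninjected libraries, and ID8-FSHR library 4 was the lowest of the 12. Fn1 fell by 1.43 on the log2 scale in ID8-FSHR against uninjected mice (SE 0.20, edgeR adjusted p = 3.66e-05). In ID8 it fell by 1.26 (SE 0.20, edgeR adjusted p = 0.000105). Group means were 17509 ± 5106 CPM in ID8-FSHR and 19687 ± 2312 CPM in ID8, against 47025 ± 3849 CPM in uninjected mice (SD, n = 4 each).

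Between the tumour groups Fn1 did not pass the test, with a log2 difference of -0.17 (95% interval -0.59 to 0.25, edgeR adjusted p = 0.605). Fn1 made up 88.1 to 89.3% of the reads of the 9 genes in ID8-FSHR, 89.4 to 91.5% in ID8 and 92.0 to 93.5% in uninjected mice. It ranked first or second among all genes in every library, and first in ID8-FSHR library 1 and uninjected libraries 1 to 3. The 9 genes together took 1.18 to 2.59% of all counts in ID8-FSHR and 1.90 to 2.47% in ID8, against 4.31 to 5.09% in uninjected mice.

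Vtn (ENSMUSG00000017344.4, chr11:78499091-78502324, plus strand) encodes vitronectin, a plasma adhesion protein made chiefly by the liver. It had 0 counts in all 12 libraries and was not tested. The liver genes Alb, Ttr, Serpina1a and Fgb also had 0 counts in all 12. Apoa1, the remaining liver gene listed, had 0 to 8 counts in ID8-FSHR, 4 to 20 in ID8 and 0 to 6 in uninjected mice.

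Thbs1 and Thbs2 encode trimeric thrombospondins that bind the receptors CD47 and CD36, and thrombospondin-1 is also a known activator of latent TGF-beta. Thbs1 (ENSMUSG00000040152.8, chr2:118111876-118127133, plus strand) stood at 2171, 2339, 1740.3 and 497 CPM in ID8-FSHR, at 1226, 1333, 1787 and 1427 CPM in ID8, and at 3519, 2973, 3845 and 3188 CPM in uninjected mice. Every tumour library lay below every uninjected one, and ID8-FSHR library 4 was again the lowest. Thbs1 fell by 1.00 on the log2 scale in ID8-FSHR (SE 0.34, edgeR adjusted p = 0.0203) and by 1.23 in ID8 (SE 0.34, edgeR adjusted p = 0.00686), each against uninjected mice. With no filter on low counts the first of these calls was lost (edgeR adjusted p = 0.0769).

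Thbs1 averaged 1687 ± 832 CPM in ID8-FSHR and 1443 ± 244 CPM in ID8 (SD, n = 4 each), a log2 difference of 0.22 that did not pass the test (95% interval -0.51 to 0.96, edgeR adjusted p = 0.701). Without ID8-FSHR library 4 the value was 0.53 (edgeR adjusted p = 0.0484). Without ID8-FSHR library 1 it was 0.081 (edgeR adjusted p = 0.903), and without ID8-FSHR library 2 it was 0.035 (edgeR adjusted p = 0.971). The ratio of Thbs1 to Fn1 counts was 0.104, 0.112, 0.0950 and 0.0494 in ID8-FSHR libraries 1 to 4, 0.0645 to 0.0856 in ID8 and 0.0657 to 0.0828 in uninjected mice. ID8-FSHR thus held both the highest ratios and the lowest one.

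Thbs2 (ENSMUSG00000023885.9, chr17:14665500-14694235, minus strand) was at the edge of detection. It had 4, 4, 14 and 16 counts in ID8-FSHR libraries 1 to 4, 10, 8, 26 and 20 counts in ID8, and 0, 2, 0 and 2 counts in uninjected mice. The uninjected libraries were all within the limit of 3 counts, and every tumour library was above it. Thbs2 was higher by 3.01 on the log2 scale in ID8-FSHR (SE 0.93, edgeR adjusted p = 0.0121) and by 3.72 in ID8 (SE 0.90, edgeR adjusted p = 0.00284) than in uninjected mice. Between ID8-FSHR and ID8 the difference was -0.71 (95% interval -2.21 to 0.78, edgeR adjusted p = 0.531). All of these counts are even, as were 71.3 to 73.8% of counts from 1 to 50 in each library, so a step of 1 molecule may be larger than 1 count here.

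**Figure D1:**
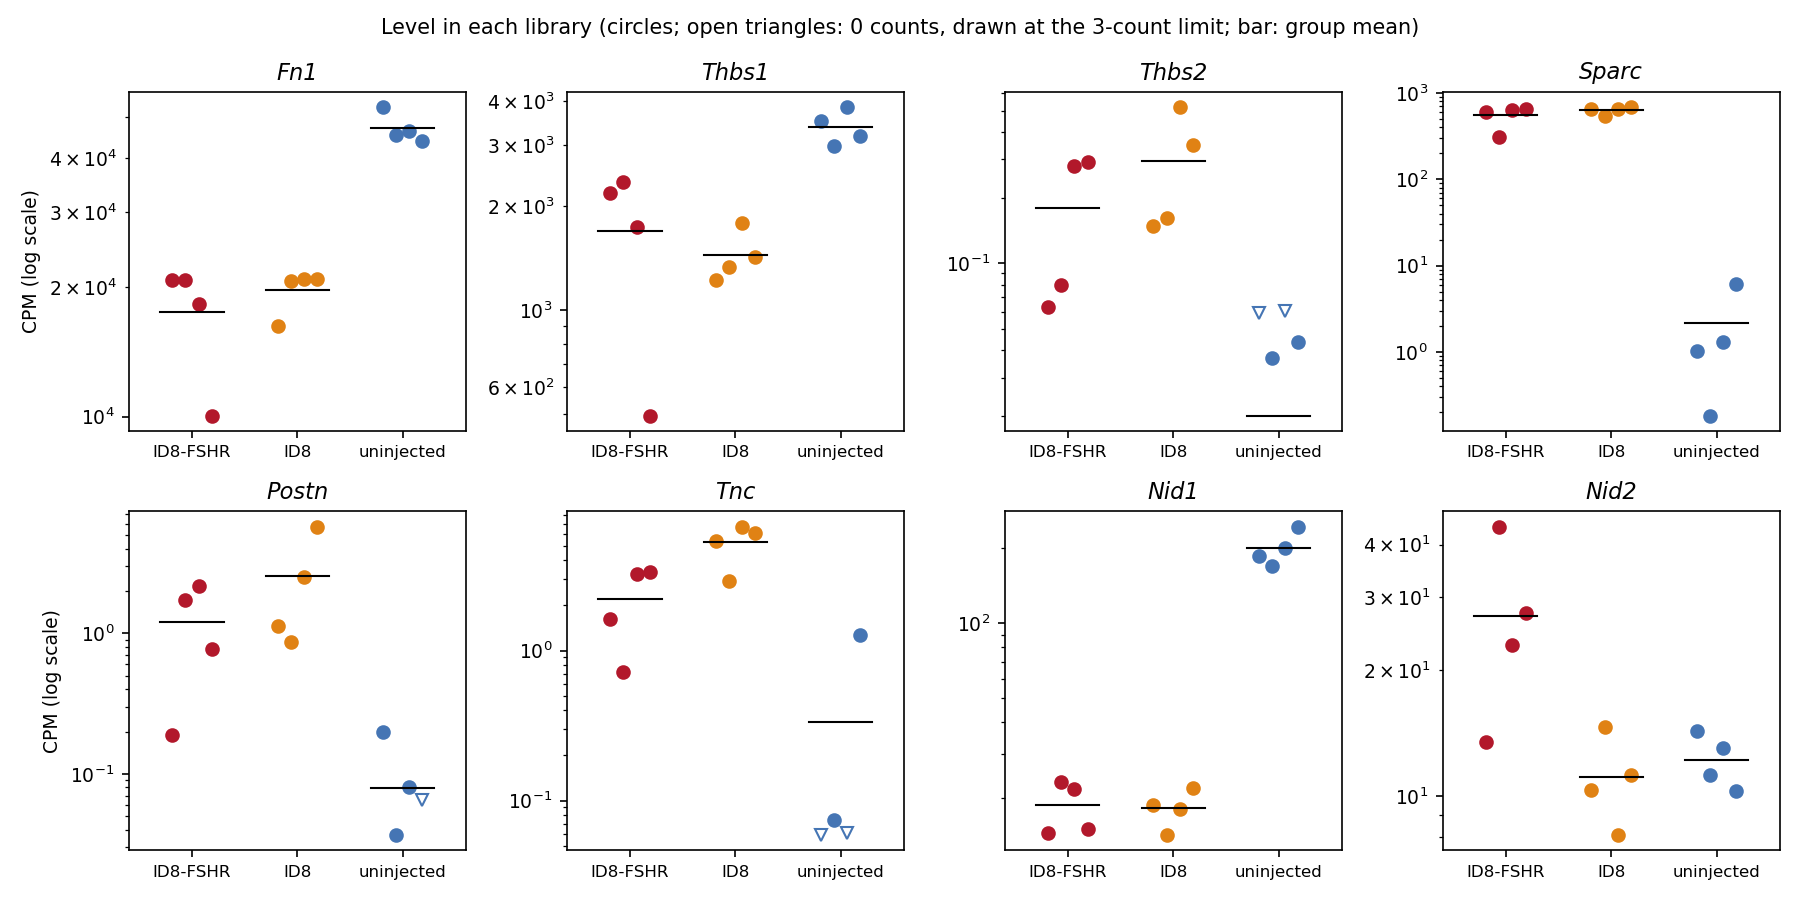
CPM on a log axis for the 8 genes with reads, with 1 circle per library in the order of its replicate number, an open triangle at the 3-count limit for a library with 0 counts, and a bar at the group mean. Fn1, Thbs1 and Nid1 sit lower in both tumour groups than in uninjected mice, Sparc sits far higher, and Nid2 is highest in 3 of the 4 ID8-FSHR libraries.

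Sparc (ENSMUSG00000018593.13, chr11:55394500-55423183, minus strand) encodes a calcium-binding glycoprotein that binds collagens. It stood at 606, 307, 627 and 658 CPM in ID8-FSHR libraries 1 to 4, at 649, 543, 649.6 and 678 CPM in ID8, and at 1.03, 0.184, 1.31 and 6.06 CPM in uninjected mice. No value of the tumour groups came near the uninjected range. ID8-FSHR library 2 was the lowest tumour library, and uninjected library 4 the highest without tumour. Sparc was 261-fold higher in ID8-FSHR (log2 8.03, SE 0.73, edgeR adjusted p = 7.36e-07) and 299.5-fold higher in ID8 (log2 8.23, SE 0.73, edgeR adjusted p = 6.21e-07) than in uninjected mice. Without uninjected library 4 these log2 values were 9.37 (edgeR adjusted p = 4.98e-08) and 9.56 (edgeR adjusted p = 3.81e-08).

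Sparc averaged 550 ± 163 CPM in ID8-FSHR and 630 ± 59.4 CPM in ID8 (SD, n = 4 each). Their log2 difference of -0.20 did not pass the test, and its interval was wide (95% interval -1.33 to 0.93, edgeR adjusted p = 0.837).

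Postn (ENSMUSG00000027750.16, chr3:54361109-54391037, plus strand) encodes periostin, an integrin ligand made chiefly by fibroblasts. It stood at 0.190, 1.71, 2.16 and 0.767 CPM in ID8-FSHR libraries 1 to 4, at 1.13, 0.867, 2.51 and 5.72 CPM in ID8, and at 0.197, 0.0369, 0.0808 and 0 CPM in uninjected mice. ID8-FSHR library 1 lay within the uninjected range, and the other tumour libraries lay above it. Postn was higher by 3.88 in ID8-FSHR (SE 0.96, edgeR adjusted p = 0.00329) and by 4.97 in ID8 (SE 0.96, edgeR adjusted p = 0.000566) on the log2 scale, each against uninjected mice. Without uninjected library 1 the values were 4.83 (edgeR adjusted p = 0.00408) and 5.92 (edgeR adjusted p = 0.00108). Without ID8 library 4 the ID8 value was 4.20 (edgeR adjusted p = 0.00182).

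Postn differed between ID8-FSHR and ID8 by -1.09 on the log2 scale (95% interval -2.69 to 0.51, edgeR adjusted p = 0.357). Without ID8 library 4 the value was -0.32 (edgeR adjusted p = 0.839). The counts were 12 to 108 in ID8-FSHR and 43 to 327 in ID8.

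Tnc (ENSMUSG00000028364.15, chr4:63959785-64047015, minus strand) encodes tenascin-C, a hexameric protein of healing wounds and tumour stroma. It stood at 1.61, 0.716, 3.23 and 3.32 CPM in ID8-FSHR libraries 1 to 4, at 5.37, 2.90, 6.69 and 6.11 CPM in ID8, and at 0, 0.0738, 0 and 1.26 CPM in uninjected mice. Uninjected library 4, with 58 counts where the others had 0 to 4, lay above ID8-FSHR library 2 and below every ID8 library. Tnc was higher by 2.77 on the log2 scale in ID8-FSHR (SE 0.97, edgeR adjusted p = 0.0237) and by 4.02 in ID8 (SE 0.99, edgeR adjusted p = 0.00319) than in uninjected mice.

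Uninjected library 4 sets the size of both Tnc values. Without it they were 6.31 (edgeR adjusted p = 6.44e-05) in ID8-FSHR and 7.55 (edgeR adjusted p = 1.44e-05) in ID8. The ID8-FSHR call was lost in 8 of 20 alternative settings, with adjusted p up to 0.0777. These were DESeq2, no filter, a fit of only the groups compared, and a fit without ID8-FSHR library 3 or 4 or without uninjected library 1, 2 or 3, where the adjusted p was 0.0506 to 0.0620. Tnc averaged 2.22 ± 1.27 CPM in ID8-FSHR and 5.27 ± 1.67 CPM in ID8, a log2 difference of -1.25 that did not pass the test (95% interval -3.07 to 0.58, edgeR adjusted p = 0.354).

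Nid1 (ENSMUSG00000005397.8, chr13:13437551-13512269, plus strand) and Nid2 (ENSMUSG00000021806.4, chr14:19751265-19811787, plus strand) encode nidogen-1 and nidogen-2, which share their laminin and collagen IV partners. Nid1 stood at 14.5, 23.2, 21.7 and 15.0 CPM in ID8-FSHR libraries 1 to 4, at 18.6, 14.2, 17.9 and 21.8 CPM in ID8, and at 187, 169, 200.6 and 244 CPM in uninjected mice. The tumour groups filled the same narrow range, far below every uninjected library. Nid1 was 10.8-fold lower in ID8-FSHR (log2 -3.43, SE 0.19, edgeR adjusted p = 1.03e-08) and 11.0-fold lower in ID8 (log2 -3.46, SE 0.19, edgeR adjusted p = 8.52e-09) than in uninjected mice. The tumour groups differed by 0.03 in Nid1 (95% interval -0.34 to 0.41, edgeR adjusted p = 0.922), the narrowest interval among the 8 genes for that comparison.

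Nid2 stood at 13.5, 44.2, 23.0 and 27.4 CPM in ID8-FSHR libraries 1 to 4, at 10.3, 14.7, 8.09 and 11.2 CPM in ID8, and at 14.4, 11.2, 13.03 and 10.3 CPM in uninjected mice. ID8-FSHR libraries 2, 3 and 4 lay above every other library, while ID8-FSHR library 1 lay within the range of both other groups. Nid2 was higher in ID8-FSHR than in ID8 by 1.28 on the log2 scale (SE 0.29, edgeR adjusted p = 0.0147) and higher than in uninjected mice by 1.14 (SE 0.29, edgeR adjusted p = 0.00388). Without ID8-FSHR library 2 the values were 0.96 (edgeR adjusted p = 0.0266) against ID8 and 0.90 (edgeR adjusted p = 0.00557) against uninjected mice. Without ID8 library 3 the difference from ID8 was 1.16 and its call was lost (edgeR adjusted p = 0.0526). The call was near the threshold without ID8 library 1 (edgeR adjusted p = 0.0458) or 4 (edgeR adjusted p = 0.0459). It was also near it with no filter (edgeR adjusted p = 0.0465) and with only the groups compared (edgeR adjusted p = 0.0421).

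ID8 against uninjected mice gave a Nid2 log2 difference of -0.14 (95% interval -0.77 to 0.49, edgeR adjusted p = 0.685). The ratio of Nid2 to Nid1 counts was 0.929, 1.91, 1.06 and 1.83 in ID8-FSHR, 0.556, 1.03, 0.451 and 0.515 in ID8, and 0.0422 to 0.0769 in uninjected mice. Every tumour library had a higher ratio than every uninjected one, and the tumour groups overlapped in 1 library each.

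Nid2 shares 437 exon bases with Rtraf on the opposite strand, a gene with 48186 counts in all libraries against 10648 for Nid2. The sources used here give no strand setting for the counting, and without it reads of the shared bases cannot be told apart. Rtraf averaged 77.9 ± 9.68 CPM in ID8-FSHR, 66.8 ± 6.04 CPM in ID8 and 81.0 ± 1.66 CPM in uninjected mice (SD, n = 4 each). Its log2 difference between ID8-FSHR and ID8 was 0.22 (SE 0.09, edgeR adjusted p = 0.120). Rtraf was highest in ID8-FSHR library 2, where Nid2 was also highest, and the part of Rtraf reads in the Nid2 difference was not tested.

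**Figure D2:**
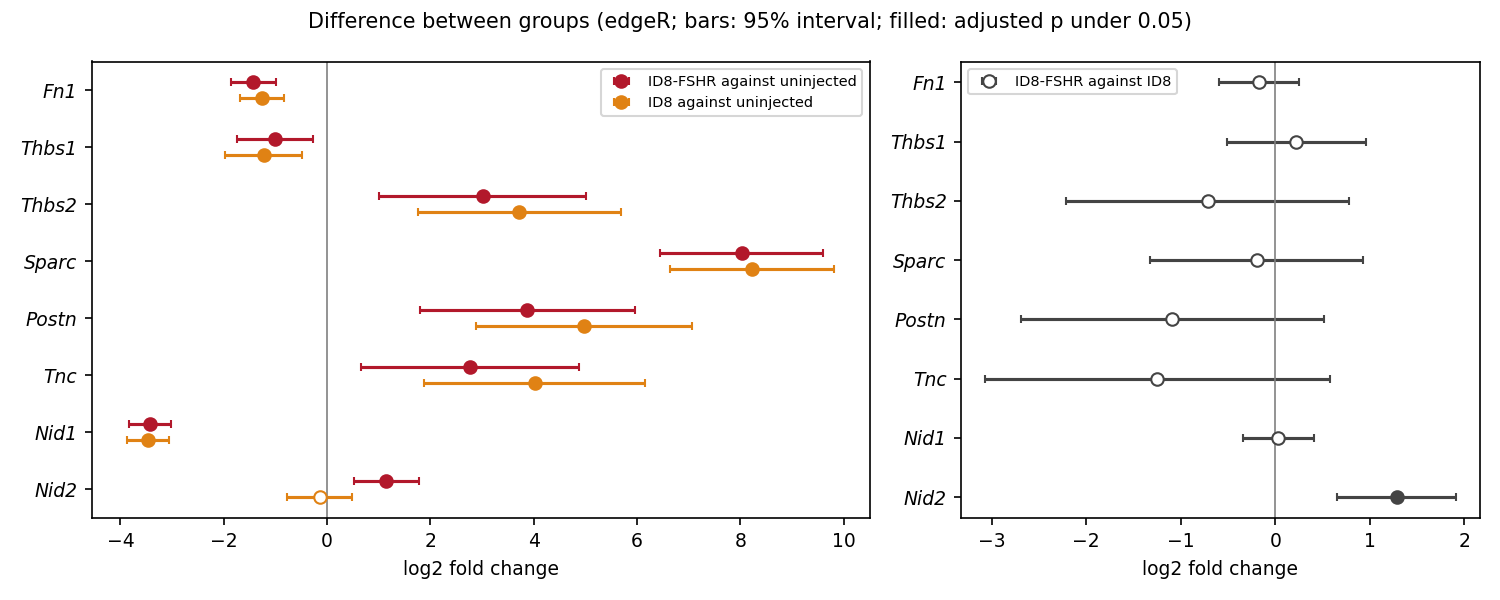
Log2 fold changes of the 8 tested genes with 95% intervals, on the left for ID8-FSHR and ID8 each against uninjected mice and on the right for ID8-FSHR against ID8, with filled points where the edgeR adjusted p was under 0.05. Sparc is the farthest to the right on the left panel and Nid1 the farthest to the left, and on the right panel only Nid2, at 1.28, is filled.

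Of the 9 genes 8 passed the filter on low counts. In ID8-FSHR against uninjected mice 5 were called higher and 3 lower, where 64.5% of all 16915 tested genes were called (33.9% higher and 30.6% lower). In ID8 against uninjected mice 4 were called higher and 3 lower, where 64.1% of tested genes were called (32.7% higher and 31.4% lower). Calls are this common among all genes, and Sparc, Postn, Tnc and Thbs2 passed the filter only with their tumour libraries, so the counts single out nothing about the set. Both comparisons share the uninjected libraries. The libraries of ID8-FSHR and of uninjected mice did not overlap for 5 of the 8 genes (57.0% of all tested genes), those of ID8 and of uninjected mice for 7 (62.5%), and those of ID8-FSHR and ID8 for 0 (18.5%). In ID8-FSHR against ID8 only Nid2 was called, higher, where 11.6% of tested genes were called (6.04% higher and 5.56% lower). The median log2 fold change of the 8 genes was 1.96, 1.79 and -0.18 in these comparisons, against 0.00, -0.03 and -0.01 over all tested genes.

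Levels were compared between genes as CPM per kilobase of merged exon. In ID8-FSHR the order was Fn1 at 1498, Thbs1 at 278, Sparc at 145, Nid2 at 5.22, Nid1 at 2.68, Tnc at 0.286, Postn at 0.139 and Thbs2 at 0.0255. Thbs1 and Sparc overlapped in that group, as did Nid2 and Nid1, Tnc and Postn, and Postn and Thbs2. In ID8 the order was Fn1 at 1685, Thbs1 at 238, Sparc at 166, Nid1 at 2.61, Nid2 at 2.14, Tnc at 0.678, Postn at 0.294 and Thbs2 at 0.0420. Only Nid1 and Nid2, and Tnc and Postn, overlapped as neighbours there.

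Uninjected mice had Fn1 at 4024, Thbs1 at 557, Nid1 at 28.8, Nid2 at 2.36 and Sparc at 0.566 CPM per kilobase, with Tnc, Postn and Thbs2 at or below 0.0430. Sparc thus took rank 3 in both tumour groups and rank 5 without tumour, while Nid1 took rank 5 in ID8-FSHR, rank 4 in ID8 and rank 3 without tumour.

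**Figure D3:**
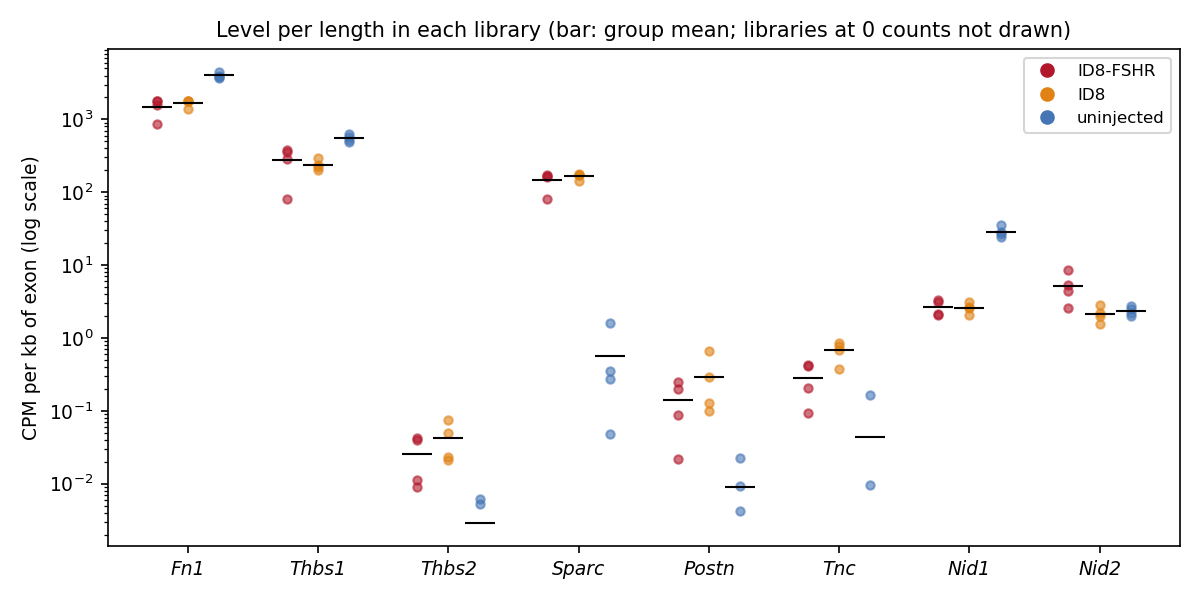
CPM per kilobase of exon on a log axis for the 8 genes with reads, with 1 point per library (libraries at 0 counts not drawn) and a bar at the group mean. Fn1 is highest in every group, at means of 1498 in ID8-FSHR, 1685 in ID8 and 4024 in uninjected mice, and Sparc takes rank 3 in both tumour groups and rank 5 without tumour.

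Marker genes of the cells a lavage can hold moved with several of these results. The summed level of 10 resident macrophage markers was 4842 to 9205 CPM in ID8-FSHR and 7791 to 10083 CPM in ID8, against 17643 to 21654 CPM in uninjected mice. In each tumour group 9 of these markers were called lower than in uninjected mice and Gata6 alone was called higher. Of all tested genes, 30.6% were lower and 33.9% higher in ID8-FSHR, and 31.4% lower and 32.7% higher in ID8. The lowest sum, 4842 CPM, was in ID8-FSHR library 4, where Fn1 and Thbs1 were also lowest. Prg4, Alox15, Selp, Vsig4, Tgfb2 and Gata6 were lowest among the tumour libraries there, with Prg4 at 1571 CPM and Alox15 at 1092 CPM. Timd4 was instead highest among the tumour libraries there, at 569 CPM. Adgre1, Icam2 and Naip1 were within the range of the other tumour libraries. The part of the resident macrophage markers in the Fn1 and Thbs1 results was not tested.

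The 8 B cell markers summed to 316 to 568 CPM in ID8-FSHR and 363 to 526 CPM in ID8, against 2817 to 3678 CPM in uninjected mice. All 8 were called lower in both tumour groups, beside 30.6% of all tested genes in ID8-FSHR and 31.4% in ID8. The median log2 fold change of the B cell markers was -2.96 in ID8-FSHR and -2.79 in ID8, beside the Nid1 values of -3.43 and -3.46. The part of these markers in the Nid1 result was not tested. The 13 mesothelial markers, which ovarian surface epithelial cells such as ID8 also express, summed to 996 to 2561 CPM in ID8-FSHR and 2883 to 3629 CPM in ID8, against 21.3 to 24.5 CPM in uninjected mice. The lowest tumour value, 996 CPM, was in ID8-FSHR library 2, which also had the lowest Sparc level of the tumour libraries. In uninjected library 4, where Sparc and Tnc were high for that group, the sum was 23.9 CPM, within the range of its group. Single markers went both ways there. Wt1 was at 0.741 CPM in that library, against 0.283 to 0.296 CPM in the other uninjected libraries. Krt19 was at 2.40 CPM there, against 0.738 to 1.22 CPM, and Upk1b at 0.697 CPM, against 0.129 to 0.395 CPM. Krt18, Bnc1 and Cldn15 were also at their uninjected maximum in that library. Gpm6a, Muc16 and Lrrn4 were at their uninjected minimum there, at 3.25, 0.349 and 0.261 CPM. Msln, Upk3b, Krt7 and Krt8 were highest in other uninjected libraries. The part of these markers in the Sparc and Tnc results was not tested.

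The 10 fibroblast markers summed to 243 to 452 CPM in ID8-FSHR and 509 to 641 CPM in ID8, against 30.8 to 42.0 CPM in uninjected mice. Different genes made up these sums: Dcn, which encodes decorin, gave 149 to 487 CPM of the sum in the tumour libraries, and Thy1 gave 16.9 to 36.9 CPM of the sum in uninjected mice. Col1a1, Col1a2 and Col3a1 were lowest among the tumour libraries in ID8-FSHR library 1, at 1.93, 1.49 and 4.66 CPM. They were highest in ID8 library 4, at 15.8, 23.1 and 48.7 CPM. Postn was also lowest among the tumour libraries in ID8-FSHR library 1 and highest in ID8 library 4. The list as a whole did not follow this in ID8-FSHR library 1. There the sum was 452 CPM and Dcn 390 CPM, each the highest of its group. In ID8 library 4 the sum was 641 CPM, the highest of its group. The part of the fibroblast markers in the Postn and Tnc results was not tested. Platelets are a further source of Thbs1, and their 8 listed genes summed to 36.9 to 92.9 CPM in ID8-FSHR and 82.6 to 124 CPM in ID8, against 297 to 397 CPM in uninjected mice, mostly from Pf4. Of these genes 3 passed the filter, with 1 higher and 1 lower in each tumour group, and the defining platelet gene Gp1bb had 0 counts in every library. The platelet receptor genes Itga2b, at 2.26 to 7.67 CPM and higher in both tumour groups, and Gp1ba, at 1.13 to 2.31 CPM, were counted in every library. The part of platelet RNA in the Thbs1 result was not tested. The 5 T cell markers summed to 44.7 to 94.4 CPM in ID8-FSHR, 26.9 to 32.4 CPM in ID8 and 35.2 to 96.7 CPM in uninjected mice, and the 7 monocyte markers were highest, at 1484 CPM, in ID8-FSHR library 2. These move with Nid2 across the tumour libraries in part, and their part in the Nid2 result was not tested.

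**Figure D4:**
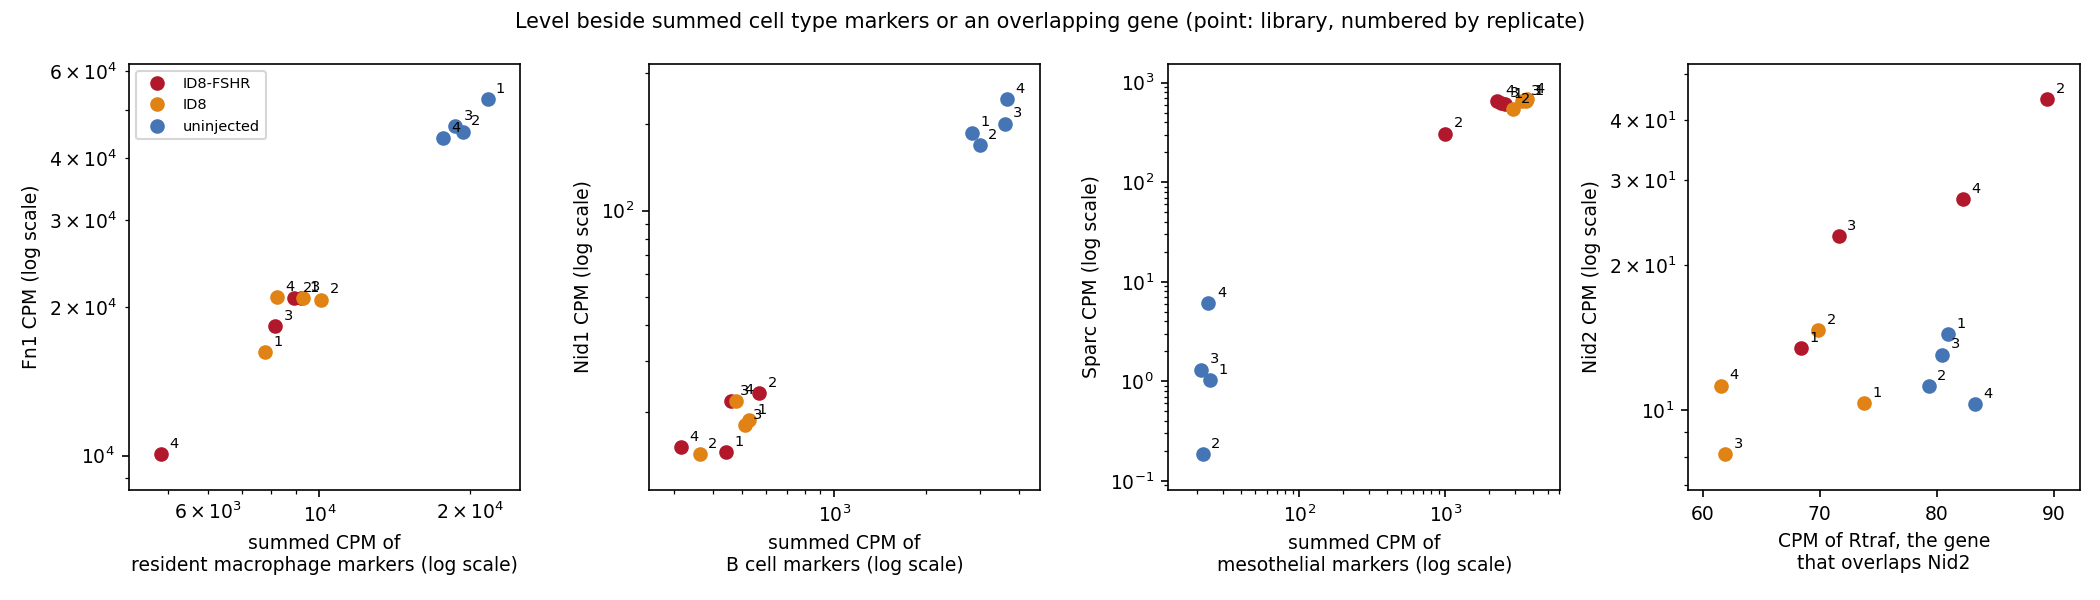
Each panel sets the CPM of a gene in 12 libraries (log axis, points numbered by replicate) beside the summed CPM of a marker list or, for Nid2, the CPM of the overlapping gene Rtraf. Fn1 and the sum of resident macrophage markers are both lowest in ID8-FSHR library 4. Sparc and the sum of mesothelial markers are lowest among tumour libraries in ID8-FSHR library 2. Nid2 ranges from 13.5 to 44.2 CPM in ID8-FSHR while Rtraf ranges from 68.4 to 89.4 CPM.

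For each of the 8 tested genes the 3 genes with the most similar pattern were taken by Pearson's r of log2 CPM over the 12 libraries, among 9777 genes. These libraries fall into tumour and uninjected sets that drive any such r, so the values are descriptions. Fn1 was most like Dpep2 (r = 0.992), Prg4 (0.989) and Asz1 (0.987), and Prg4 is also on the resident macrophage list. Thbs1 was most like Cd14 (0.980), the endotoxin co-receptor, then Clec4d (0.973) and Ccl24 (0.965). Nid1 was most like Cacna1e (0.996), Tnfrsf13b (0.996) and Ms4a1 (0.996), where Ms4a1 is the B cell antigen CD20 and Tnfrsf13b the B cell receptor TACI.

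Sparc was most like Map1b (0.998), Gpc4 (0.997) and Serpinh1 (0.996), the collagen chaperone. Tnc was most like Akap5 (0.967), Parm1 (0.962) and Glipr1 (0.958). Postn was most like Sesn2 (0.898), Col3a1 (0.889) and Dpf2 (0.889), and Thbs2 like Dpf2 (0.895), Stim1 (0.887) and Upf3a (0.884). Nid2 was most like Fam120a (0.975), Nudt5 (0.958) and Prelid1 (0.958), each a broadly expressed gene.

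Receptors of the 9 proteins split in both directions. Of the 17 tested of 20 listed, 6 were higher and 6 lower in ID8-FSHR than in uninjected mice, and 8 were higher and 8 lower in ID8 than in uninjected mice. Among all tested genes 33.9% were higher and 30.6% lower in ID8-FSHR, and 32.7% were higher and 31.4% lower in ID8. Itgb8, at 0.124 CPM in uninjected mice, passed the filter on low counts only through the tumour libraries, so these counts are a description. Itgb5, an integrin subunit of vitronectin receptors, averaged 51.3 ± 10.7 CPM in ID8-FSHR and 83.2 ± 7.76 CPM in ID8, against 2.16 ± 0.568 CPM in uninjected mice (SD, n = 4 each). Its log2 increase was 4.57 in ID8-FSHR (SE 0.20, edgeR adjusted p = 2.51e-09) and 5.27 in ID8 (SE 0.21, edgeR adjusted p = 1.20e-09). Itgb8, whose integrin binds latent TGF-beta, rose by 6.86 and 6.80 in the same comparisons, and the syndecan Sdc4, a fibronectin co-receptor, by 3.37 and 4.12.

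Stab1, a scavenger receptor that takes up SPARC, averaged 22.9 ± 7.49 CPM in ID8-FSHR and 44.0 ± 15.9 CPM in ID8, against 240.0 ± 43.0 CPM in uninjected mice. It fell by 3.39 in ID8-FSHR (SE 0.27, edgeR adjusted p = 2.49e-07) and by 2.45 in ID8 (SE 0.26, edgeR adjusted p = 3.28e-06). Itgav, the alpha chain of several fibronectin and vitronectin receptors, rose by 1.93 in ID8 (SE 0.13, edgeR adjusted p = 3.82e-08). Between ID8-FSHR and ID8, 4 of the 17 were lower and none was higher, beside 5.56% lower and 6.04% higher of all tested genes. Itgb3 averaged 31.4 ± 6.57 CPM in ID8-FSHR and 59.6 ± 5.55 CPM in ID8, a log2 difference of -0.93 (SE 0.14, edgeR adjusted p = 0.00113). Stab1, Sdc4 and Itgb5 were the others, at -0.94, -0.76 and -0.70.

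Basement membrane genes include the partners of the nidogens. Of the 16 tested of 21 listed, 12 were higher and 3 lower in ID8-FSHR, and 13 were higher and 2 lower in ID8, each against uninjected mice. Of all tested genes, 33.9% were higher and 30.6% lower in ID8-FSHR, and 32.7% higher and 31.4% lower in ID8. Genes near 0 in uninjected mice, such as Col4a6 at 0.0603 CPM, passed the filter on low counts only through the tumour libraries, so these counts are given as a description. The median log2 fold changes were 4.45 and 5.10. Lama5, the laminin alpha 5 chain, averaged 171 ± 43.4 CPM in ID8-FSHR and 184 ± 17.9 CPM in ID8, against 0.481 ± 0.286 CPM in uninjected mice, log2 increases of 8.45 (SE 0.33, edgeR adjusted p = 1.65e-09) and 8.55 (SE 0.33, edgeR adjusted p = 1.18e-09).

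Lamb2, the laminin beta 2 chain, rose by 5.14 in ID8-FSHR and 6.02 in ID8. The collagen IV chains Col4a5 and Col4a6 rose by 6.30 and 9.25 in ID8-FSHR and by 6.93 and 10.06 in ID8. Lama3, the laminin alpha 3 chain, averaged 7.48 ± 3.50 CPM in ID8-FSHR and 26.8 ± 7.03 CPM in ID8, a log2 difference of -1.84 (SE 0.28, edgeR adjusted p = 0.00133). Lamb2 and Agrn were also lower in ID8-FSHR than in ID8, by log2 values of -0.87 and -0.48, while Col4a2 at -1.25 did not pass (edgeR adjusted p = 0.0542). None of the 16 was higher in ID8-FSHR than in ID8, where 5.56% of all tested genes were lower and 6.04% higher. Nid2 was called higher, the other direction from Lama3, Lamb2 and Agrn.

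Other matricellular genes numbered 20 tested of 28 listed. In ID8-FSHR 11 were higher and 4 lower, and in ID8 11 were higher and 3 lower, each against uninjected mice, with median log2 fold changes of 2.43 and 1.95. The shares of all tested genes were 33.9% higher and 30.6% lower in ID8-FSHR, and 32.7% higher and 31.4% lower in ID8. Genes near 0 in uninjected mice, such as Hmcn1, passed the filter on low counts only through the tumour libraries. The counts and medians of this list are therefore a description. Hmcn1, the giant matrix protein hemicentin-1, averaged 233 ± 96.0 CPM in ID8-FSHR and 287 ± 36.0 CPM in ID8, against 0.129 ± 0.0661 CPM in uninjected mice, log2 increases of 10.79 (SE 0.44, edgeR adjusted p = 1.65e-09) and 11.09 (SE 0.44, edgeR adjusted p = 1.21e-09). Fbln2 (fibulin-2), Fstl1 (a SPARC family protein) and Tnxb (tenascin-X) rose by 8.84, 5.17 and 5.01 in ID8-FSHR and by 9.22, 6.29 and 4.76 in ID8.

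Between ID8-FSHR and ID8, 6 of these 20 genes were lower and none higher, where 5.56% of all tested genes were lower and 6.04% higher. The mesothelial markers were also lower, with sums of 996 to 2561 CPM in ID8-FSHR and 2883 to 3629 CPM in ID8, 5 of 13 called lower and a median log2 difference of -0.60. Their part in these differences was not tested. The 6 lower matricellular genes were Ccn1, Ccn2, Ccn3, Ccn4, Fstl1 and Efemp1, and Ccn2 and Ccn3 were named after their values were seen. Ccn1, a secreted integrin ligand, averaged 51.4 ± 25.0 CPM in ID8-FSHR and 147 ± 40.5 CPM in ID8, a log2 difference of -1.51 (SE 0.36, edgeR adjusted p = 0.0183). Ccn4 was at 3.76 ± 1.40 CPM in ID8-FSHR and 11.1 ± 1.17 CPM in ID8 (log2 -1.56, SE 0.29, edgeR adjusted p = 0.00474). Fstl1 and Efemp1 differed by -1.12 and -1.70. Sparc, with a difference of -0.20, and the thrombospondins did not pass that test.

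Genes for assembly and cross-linking of this matrix numbered 10 tested of 11 listed, of which 7 were higher and 3 lower in each tumour group than in uninjected mice, with medians of 3.53 in ID8-FSHR and 3.33 in ID8, beside the same shares of all tested genes (33.9% higher and 30.6% lower in ID8-FSHR, 32.7% higher and 31.4% lower in ID8). Genes could pass the filter through the tumour libraries alone here too, so these counts and medians are a description. Serpinh1 averaged 168 ± 46.3 CPM in ID8-FSHR and 280.4 ± 29.4 CPM in ID8, against 0.974 ± 0.991 CPM in uninjected mice. Tgm2, the transglutaminase that cross-links fibronectin, averaged 374 ± 212 CPM in ID8-FSHR and 251 ± 35.7 CPM in ID8, against 10.3 ± 1.70 CPM in uninjected mice. The collagen processing genes Pcolce and Bmp1 rose by 7.48 and 1.63 in ID8-FSHR and by 7.41 and 2.04 in ID8.

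Between ID8-FSHR and ID8, F13a1 and Lox were lower and none of the 10 was higher, beside 5.56% lower and 6.04% higher of all tested genes. F13a1, the A chain of the fibrin cross-linker factor XIII and a macrophage product, averaged 30.1 ± 16.1 CPM in ID8-FSHR and 90.1 ± 32.6 CPM in ID8 (log2 -1.58, SE 0.39, edgeR adjusted p = 0.0218). Lox, the collagen cross-linking lysyl oxidase, averaged 9.37 ± 4.25 CPM in ID8-FSHR and 34.5 ± 4.69 CPM in ID8 (log2 -1.88, SE 0.54, edgeR adjusted p = 0.0425). Bmp1 and Adamts1, at -0.42 and -1.60, did not pass the test.

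**Figure D5:**
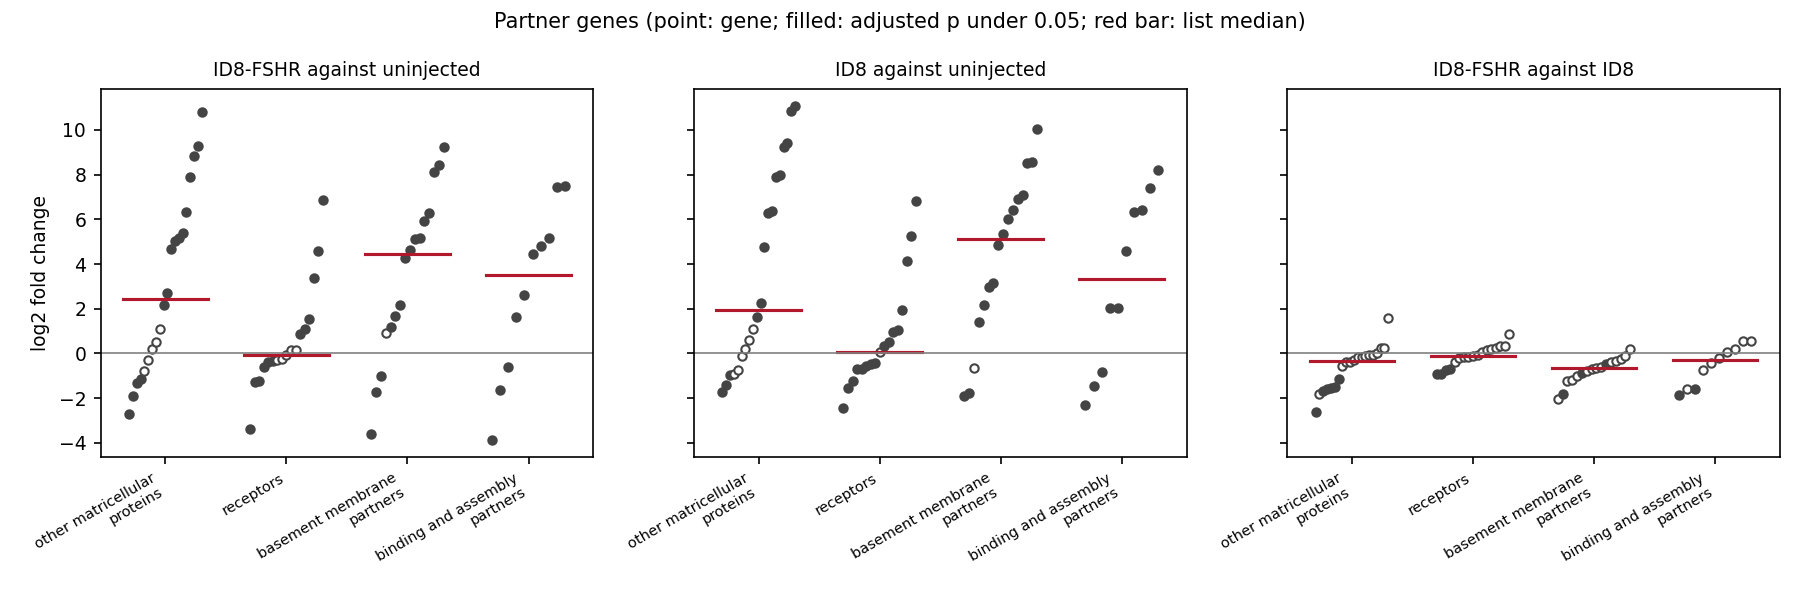
Log2 fold changes of 20 other matricellular genes, 17 receptors, 16 basement membrane genes and 10 assembly genes in the 3 comparisons, with filled points where the edgeR adjusted p was under 0.05 and a red bar at each list's median. Against uninjected mice the receptor medians lie near 0 and the other medians between 1.95 and 5.10. Some genes passed the filter only through the tumour libraries. In ID8-FSHR against ID8 the filled points all lie below 0.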

How the data were processed

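RNA from 12 lavage samples was measured by sequencing after ribosomal RNA depletion, 4 libraries in each of 3 groups, with groups and replicate numbers from the labels. The authors deposited whole-number read counts per gene, not normalized as far as the values show. Reads went through bcl2fastq 2.20, STAR 2.7.9a and featureCounts (Subread 1.6.4) with the build GRCm38.p6, per the submitters' processing notes. The sources used here give no strand setting, multimapping rule or annotation release, so counts of overlapping genes are uncertain. ID8-FSHR titles skip numbers for a reason not stated.

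The members, lists and tests were chosen with earlier results of these data known. All 12 libraries were fitted on the group in R 4.3.3 with the robust quasi-likelihood F test of edgeR 4.0.16 (TMM scaling, default filter, 16915 genes tested), and a call is a Benjamini-Hochberg adjusted p under 0.05 over all of them. CPM used TMM-scaled library sizes. Exon lengths came from GENCODE M21, in which 54349 of 55401 identifiers matched with their version, and promoter windows from RefSeq. The text names the 9 members, Fshr, Defb29 and Vegfa, the 3 genes most like each tested member (pseudocount 0.5, mean log2 CPM at least 3), and up to 4 genes of each partner list per comparison by smallest adjusted p. No libraries agreed within sampling noise. The test was tried on simulated data first. Alternatives were median-of-ratios scaling, DESeq2 1.42.0, no filter, 1 CPM in 4 libraries, only the groups compared, a replicate block, scaling without the 10 most abundant genes, each library left out in turn and, added after the data were seen, counts halved.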

Additional observations from a re-analysis of the deposited data

Results flagged for a closer look

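In 3 of 24 sets of 4 libraries (8 genes in 3 groups), 1 library lay far from the others, where chance alone gives about 1 in 20. Nid2 was the further result, because ID8-FSHR and ID8 differed by a test of the difference.

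Tnc in uninjected library 4 was the highest of its group at 1.26 CPM, with the next at 0.0738 CPM, and this gap was 0.942 of the group's range. Sparc was also highest in that library, at 6.06 CPM. Fn1 in ID8 library 1 was the lowest of its group at 16225 CPM, with the next at 20681 CPM, a gap of 0.940 of the range. Sparc in ID8-FSHR library 2 was the lowest of its group at 307 CPM, with the next at 606 CPM, a gap of 0.850 of the range. That library also stood apart on the first principal component.

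Nid2 was higher in ID8-FSHR than in ID8 by 1.28 on the log2 scale (edgeR adjusted p = 0.0147), and 3 of 4 ID8-FSHR libraries lay above every ID8 library.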

How the results depend on the processing

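Over 20 alternative settings, every call of Fn1, Nid1, Postn, Sparc and Thbs2 against uninjected mice kept its direction and stayed past the threshold wherever a value was given. Thbs2 had no value in 3 settings, and Sparc had no adjusted p under DESeq2. DESeq2 called 3 members higher in ID8-FSHR than in uninjected mice, and the fit of only the groups compared also called 3, where 5 were called. Those not called were Sparc, without an adjusted p, and Tnc (DESeq2 adjusted p = 0.0541) under DESeq2. In the fit of only the groups compared they were Thbs2, which had no value, and Tnc (edgeR adjusted p = 0.0698). For ID8-FSHR against ID8, DESeq2 called 3116 genes where edgeR called 1962. Leaving out each library gave 961 to 3136 genes called for that comparison and 0 to 2 members called, all of those higher. The causes of the differing counts for ID8-FSHR against ID8 were not tested. The uncalled differences of Nid1, Sparc and Fn1 between ID8-FSHR and ID8 changed sign when 1 library was left out, and those of Thbs1, Thbs2, Postn and Tnc did not. For Nid1 they ran from -0.075 (without ID8-FSHR library 2) to 0.14, and were also below 0 without ID8 library 2 (-0.066) and without ID8-FSHR library 3 (-0.048). For Sparc they ran from -0.29 to 0.017 (without ID8-FSHR library 2), and for Fn1 from -0.26 to 0.023 (without ID8-FSHR library 4). Other scalings moved the median of all genes by under 0.1 (log2).

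For ID8-FSHR against ID8, deviations from the group means correlated at -0.22 to 0.35 between same-numbered libraries. Between differently numbered libraries the range was -0.33 to 0.33. The highest value, 0.35, was for the libraries numbered 2. With the replicate number as a block, 10666, 10581 and 1776 genes were called in ID8-FSHR against uninjected mice, ID8 against uninjected mice and ID8-FSHR against ID8, no member's call changed, and the Tnc value in ID8 against uninjected mice was 4.75. At the counts of Thbs2, depth limits what could be detected. With 4 libraries a group, the p-values measure the spread between these libraries.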
